A study of Mus musculus with 4 samples.

Results

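The T-box genes of the Tbx1 and Tbx2 groups encode transcription factors that share a DNA-binding T-box domain and pattern the heart, the pharyngeal arches, the limbs and the palate. All 10 genes with these symbols were taken from the mouse annotation: Tbx2, Tbx3, Tbx4 and Tbx5 of the Tbx2 group, and Tbx1, Tbx10, Tbx15, Tbx18, Tbx20 and Tbx22 of the Tbx1 group. They are 10 of 21951 annotated protein-coding genes. A locus was the gene with 20 kb on either side, and the 10 loci held 82 of 10223 H3K27me3 peaks called with 500 cells and 50 of 15282 peaks called with 15000 cells.

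The cells were yolk sac erythro-myeloid progenitors (EMPs) of C57BL/6 mouse embryos at E10.5, which the study sorted as KIT+ CD41+ CD16/32+ cells. H3K27me3 was profiled by CUT&RUN, in which an antibody directs a nuclease to a chromatin mark and the released DNA fragments are sequenced. The series held 4 libraries, an H3K27me3 and an IgG library from each cell number, so each group had 1 library and no difference between cell numbers was tested. The genotype label joins Ezh2fl/fl and Tie2-Cre+/+ to the words wild type for every library, and the study treats the cells as wild type. Tie2-Cre is a transgene that drives recombination in endothelium and its blood progeny, and Ezh2 is the enzyme that writes H3K27me3. Cell number could not be told apart from the peak-calling threshold (p 0.01 with 500 EMPs and 0.05 with 15000 EMPs), the number of PCR cycles (17 and 16), the read length (76 and 59 bp), the instrument, or the sequencing depth and alignment rate, both of which the study's reporting summary gives as lower for 500 EMPs.

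H3K27me3 is placed by Polycomb repressive complex 2, whose catalytic subunit is Ezh2 or its relative Ezh1. The mark is known for broad domains over silent developmental regulators, which often start in CpG-rich sequence. T-box factors bind a short motif whose core is GGTGTGA, and several act in pairs with Nkx2-5 and Gata4 in the heart. In blood progenitors these mesodermal and pharyngeal genes are not part of the known lineage programme.

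With both cell numbers, 8 of the 10 T-box genes carried an H3K27me3 peak within 3 kb of the gene start, and the same 8 genes did so in each library. These were Tbx1, Tbx2, Tbx3, Tbx4, Tbx5, Tbx15, Tbx18 and Tbx20. Of all protein-coding genes, 9.92% had such a peak with 500 EMPs and 17.0% with 15000 EMPs. The members' share was 80% in both, with a 95% Wilson interval from 49.0 to 94.3% that covers counting error only. Tbx10 and Tbx22 had none. A peak states that the mark passed the caller's threshold in the pooled cells, so a mark on few cells and a weak mark on many cells cannot be told apart.

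**Figure D1:**
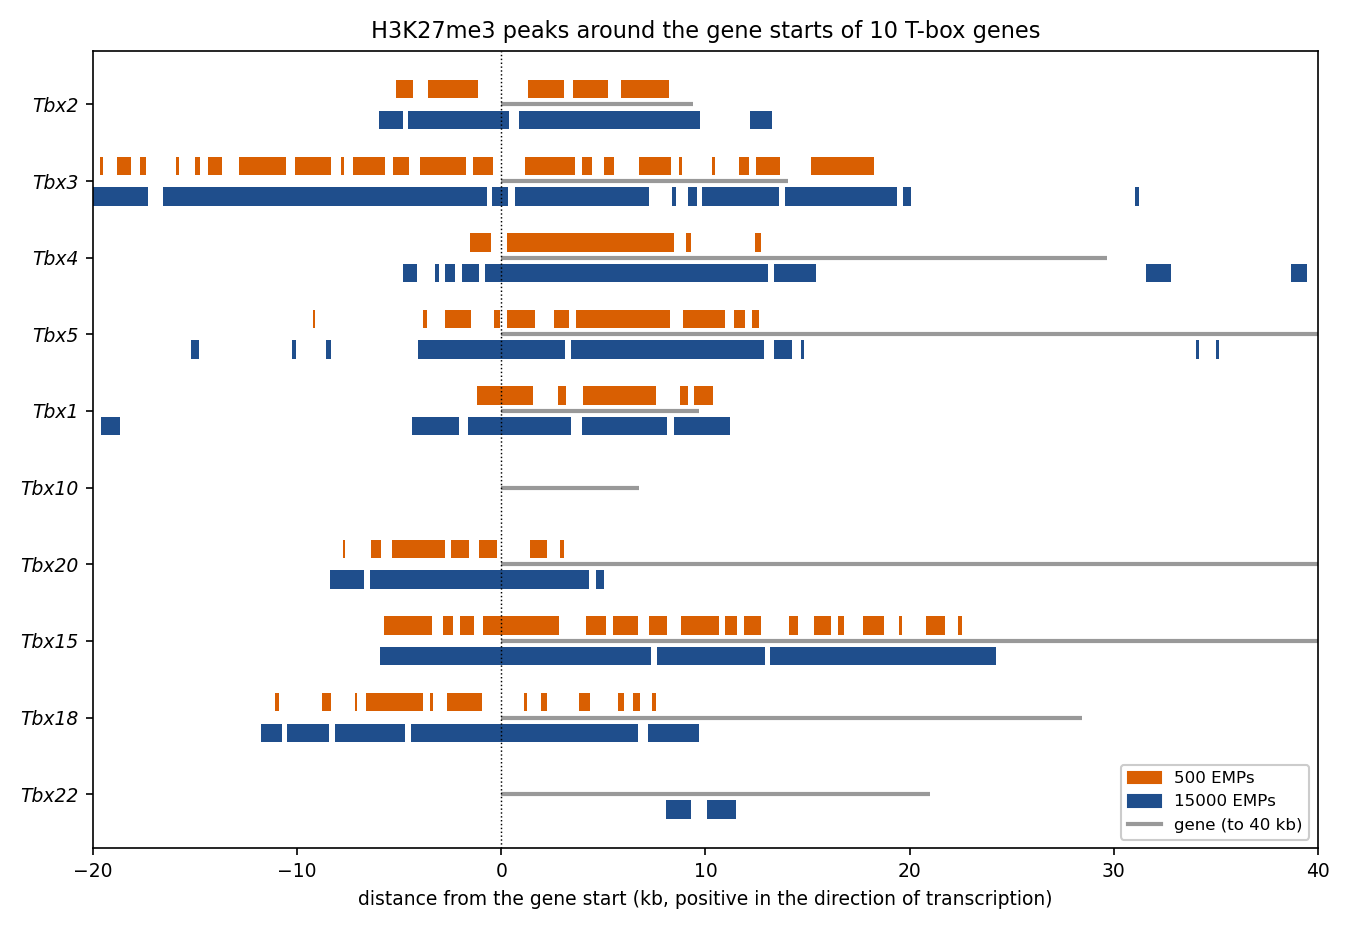
H3K27me3 peaks (bars) of the 10 T-box genes, by distance in kb from the gene start in the direction of transcription. Orange bars are peaks with 500 EMPs, blue bars peaks with 15000 EMPs, and grey lines the genes, drawn as far as 40 kb. The short orange bars of 8 genes lie mostly within longer blue bars, Tbx10 is empty, and Tbx22 has 2 blue bars inside the gene.

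The cell numbers differed at the start base itself. With 500 EMPs a peak lay over the start of 2 members, Tbx1 and Tbx15, against 1.40% of all genes. With 15000 EMPs the start was covered in 8 members, against 8.62% of all genes. A wider search, in the gene or within 20 kb, found a peak for 8 members with 500 EMPs (18.5% of all genes) and for 9 members with 15000 EMPs (30.1% of all genes). The addition was Tbx22.

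The 6 starts left bare with 500 EMPs lay in gaps between flanking peaks. The gap was 364 bp at Tbx5, 787 bp at Tbx4, 1588 bp at Tbx3, 1643 bp at Tbx20, 2052 bp at Tbx18 and 2455 bp at Tbx2. With 15000 EMPs the gaps at Tbx4, Tbx5, Tbx18 and Tbx20 were covered in full. At Tbx2 80.4% and at Tbx3 80.2% of the gap was covered. Over the 10 starts, the mean share of bases covered with 500 EMPs was 28.9% in the first 500 bp of the gene, against 55.0% between 2.0 and 1.5 kb before the start and 55.5% between 1.5 and 2.0 kb after it. Over all genes with a peak near the start, the shares in the same library and the same bins were 13.4%, 16.6% and 25.6%. Their highest share was 28.4%, between 1.0 and 1.5 kb after the start.

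**Figure D2:**
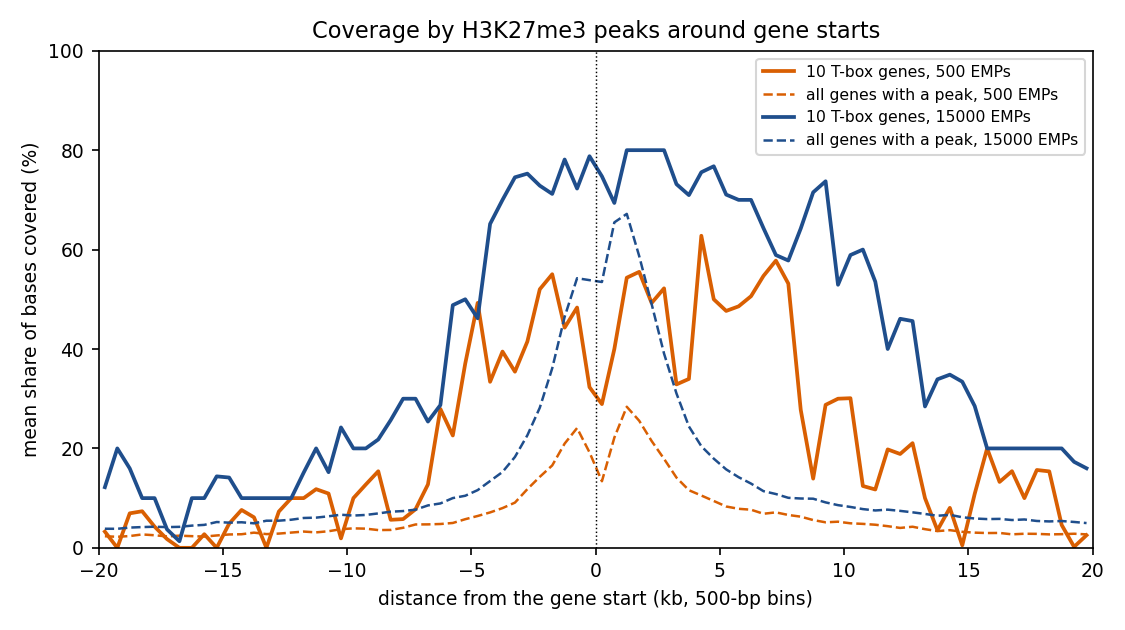
Mean share of bases covered by H3K27me3 peaks (%) in 500-bp bins by distance from the gene start (kb), for the 10 T-box genes (solid lines) and all genes with a peak within 3 kb of the start (dashed lines), with 500 EMPs (orange) and 15000 EMPs (blue). The T-box lines include the 2 unmarked starts, and the 15000-EMP line stays at 80% from 1 to 3 kb after the start, which is 8 of 10 genes covered in full.

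Reference sequence is shown for starts that differed in coverage. Promoter windows of 300 bases (250 before the start and 50 from it on) were available for 6 of the 10 members, from RefSeq on GRCm38.p6; Tbx2, Tbx3, Tbx5 and Tbx15 had none in that table. The 250 bases before the start are printed 5′ to 3′ on the gene's strand, with CG dinucleotides in capitals, since CpG content is the feature compared further on. Tbx20 (chr9:24774304-24774553, minus strand) and Tbx18 (chr9:87731261-87731510, minus strand) are starts bare with 500 EMPs and covered with 15000 EMPs. Tbx1 (chr16:18590672-18590921, minus strand) was covered in both libraries.
Tbx20: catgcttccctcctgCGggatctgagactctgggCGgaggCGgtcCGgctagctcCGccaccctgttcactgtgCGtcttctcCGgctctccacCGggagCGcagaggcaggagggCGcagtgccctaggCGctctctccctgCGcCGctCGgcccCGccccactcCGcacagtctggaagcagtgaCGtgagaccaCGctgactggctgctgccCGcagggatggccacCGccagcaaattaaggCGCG
Tbx18: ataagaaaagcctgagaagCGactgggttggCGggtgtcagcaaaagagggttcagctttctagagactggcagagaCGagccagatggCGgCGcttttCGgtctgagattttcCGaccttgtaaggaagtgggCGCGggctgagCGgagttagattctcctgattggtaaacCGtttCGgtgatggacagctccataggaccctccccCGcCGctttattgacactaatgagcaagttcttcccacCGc
Tbx1: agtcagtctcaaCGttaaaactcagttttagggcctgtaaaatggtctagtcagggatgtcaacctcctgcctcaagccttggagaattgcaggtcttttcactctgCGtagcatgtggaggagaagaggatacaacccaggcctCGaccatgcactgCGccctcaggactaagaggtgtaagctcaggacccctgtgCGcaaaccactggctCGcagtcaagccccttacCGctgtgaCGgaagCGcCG
Tbx10 (chr19:3992502-3992751, plus strand) was covered in neither library. Tbx22 is shown at its first start (chrX:107667714-107667963, plus strand), covered in neither library, and at a start inside the gene (chrX:107676262-107676511, plus strand), covered with 15000 EMPs.
Tbx10: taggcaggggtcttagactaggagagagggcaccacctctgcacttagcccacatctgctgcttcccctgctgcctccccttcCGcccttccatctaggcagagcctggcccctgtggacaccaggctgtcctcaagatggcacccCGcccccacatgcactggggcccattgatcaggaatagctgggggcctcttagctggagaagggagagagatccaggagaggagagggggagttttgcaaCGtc
Tbx22 first start: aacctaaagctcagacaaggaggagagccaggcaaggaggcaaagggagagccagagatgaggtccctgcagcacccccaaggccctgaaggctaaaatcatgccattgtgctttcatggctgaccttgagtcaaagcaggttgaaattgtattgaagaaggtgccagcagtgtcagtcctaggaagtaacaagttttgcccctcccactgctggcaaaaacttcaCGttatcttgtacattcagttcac
Tbx22 inner start: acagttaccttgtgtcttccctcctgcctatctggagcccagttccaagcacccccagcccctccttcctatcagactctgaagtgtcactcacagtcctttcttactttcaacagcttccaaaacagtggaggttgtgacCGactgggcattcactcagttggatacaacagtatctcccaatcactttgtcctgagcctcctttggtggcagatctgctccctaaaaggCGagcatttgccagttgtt

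In the 300-base windows the CpG count was 26 for Tbx20, 15 for Tbx18, 16 for Tbx1 and 8 for Tbx4 (at a start inside the gene), against a median of 7 over the 32851 windows of the table. It was 4 for Tbx10, 1 at the first start of Tbx22 and 2 at its inner start. The remaining 2 of the 9 windows lay at a second Tbx1 start inside the gene, with 26 CpG, and at a further inner start of Tbx22, with 1. Peaks with 15000 EMPs covered all 300 bases at Tbx20, Tbx18, Tbx1, Tbx4 and the inner start of Tbx22, and with 500 EMPs they covered 35, 0, 300, 0 and 0 bases of the same windows. At the second Tbx1 start the covered length was 13 bases with 500 EMPs and 300 with 15000 EMPs, and at the further Tbx22 start 0 and 300 bases. The motif GGTGTGA, searched on both strands, was in 0 of the 9 member windows and in 3.98% of all windows, so these letters are not in the windows searched.

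Around the 8 marked starts the coverage was long as well as frequent. In the 6001 bp centred on each start, the median covered length over the 10 members was 3176.5 bp with 500 EMPs and 5522.5 bp with 15000 EMPs. Over all genes with a peak there it was 789 bp (2177 genes) and 2743 bp (3728 genes), and over all protein-coding genes it was 0 bp in both libraries. With 15000 EMPs the window was covered from end to end at Tbx5, Tbx15, Tbx18 and Tbx20, which are 4 of the 139 genes of that kind. With 500 EMPs 4 genes were covered in full, of which 0 were members.

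**Figure D3:**
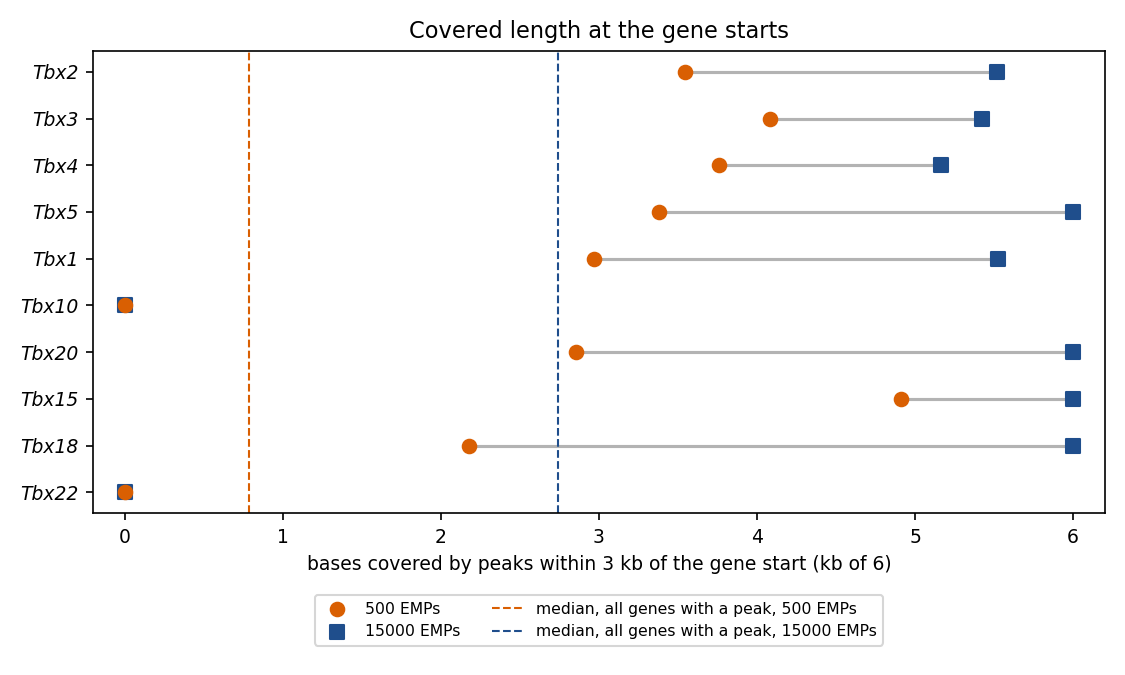
Bases covered by H3K27me3 peaks within 3 kb of each gene start (kb), for 10 T-box genes with 500 EMPs (orange circles) and 15000 EMPs (blue squares). Dashed lines are the medians over all genes with a peak there, 789 bp (orange) and 2743 bp (blue), and the 8 marked members lie to the right of the line of their colour.

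Of the Tbx2 group, Tbx2 (ENSMUSG00000000093, chr11:85832551-85841948, plus strand) encodes a repressor that keeps the atrioventricular canal from taking a chamber fate. Its locus held 5 peaks with 500 EMPs and 4 with 15000 EMPs. Within 3 kb of the start 3546 bp and 5521 bp were covered, and over the gene body the covered share was 62.0% and 94.9%. Nearly the whole short gene was thus under peaks with 15000 EMPs.

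Tbx3 (ENSMUSG00000018604, chr5:119670669-119684724, plus strand), a repressor needed for the cardiac conduction system, the limb and the mammary gland, had the most peaks within its locus of any member. The locus held 22 peaks with 500 EMPs and 10 with 15000 EMPs, which covered 40.9% and 67.4% of it. The widest was a 15866-bp peak of the 15000-EMP library upstream of the start (chr5:119654103-119669968), and 10 separate 500-EMP peaks overlapped it. Of the 20 kb before Tbx3, 11998 bp was covered with 500 EMPs and 18991 bp with 15000 EMPs. The antisense transcript Tbx3os1 runs through this stretch, with 13994 bp and 23990 bp of its span covered, and peaks carry no strand.

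Tbx4 (ENSMUSG00000000094, chr11:85886422-85916097, plus strand), which acts in hindlimb and lung, was the member with the least broken coverage in the smaller library. A single 500-EMP peak of 8206 bp (chr11:85886694-85894899) began 272 bp into the gene and was the only one over 5 kb in the loci in that library. With 15000 EMPs a peak of 13883 bp spanned the start, and the locus held 9 peaks against 4 with 500 EMPs.

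Tbx5 (ENSMUSG00000018263, chr5:119832668-119885219, plus strand), which acts in forelimb and heart and is mutated in Holt-Oram syndrome, held 10 peaks with 500 EMPs and 9 with 15000 EMPs. The start window was covered over 3382 bp and 6001 bp. Of the gene body 18.3% and 26.7% was covered, and beyond the 5′ part of the gene the peaks were 2 short ones of 171 and 185 bp with 15000 EMPs.

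Of the Tbx1 group, Tbx1 (ENSMUSG00000009097, chr16:18580979-18590671, minus strand) patterns the pharyngeal arches and the outflow tract and is the main gene of DiGeorge syndrome. Its locus held 5 peaks in each library, with 15000 EMPs including a peak near the upstream edge of the 20-kb flank (chr16:18609373-18610281). Peaks covered 63.5% of the gene with 500 EMPs and 90.8% with 15000 EMPs, and 2971 bp and 5524 bp of the start window. Tbx1 and Tbx2, the shortest marked genes, were thus the members with most of the gene body under peaks in both libraries.

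Tbx20 (ENSMUSG00000031965, chr9:24718138-24774303, minus strand), needed for heart chamber growth and valves, held 7 peaks with 500 EMPs and 3 with 15000 EMPs. Its start window was covered over 2857 bp and 6001 bp, and the gene body over 1.70% and 8.31%. The peaks stood around the start and upstream of it, where 24.8% and 40.6% of 20 kb was covered, and 6 of the smaller pieces lay in one peak of 10714 bp with 15000 EMPs.

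Tbx15 (ENSMUSG00000027868, chr3:99240381-99354259, plus strand), which acts in skeletal and skin development, held 17 peaks with 500 EMPs and 3 with 15000 EMPs. Each of the 17 overlapped 1 or 2 of the 3. Its start window had the highest coverage of the members with 500 EMPs, 4914 bp, and 6001 bp with 15000 EMPs. Of the long gene body 11.4% and 20.8% was covered, in a run from the start.

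Tbx18 (ENSMUSG00000032419, chr9:87702800-87731260, minus strand) acts in the epicardium, the sinoatrial node and the ureter. It held 12 peaks with 500 EMPs and 5 with 15000 EMPs. The start window had the lowest coverage of the 8 marked members with 500 EMPs, 2181 bp, and was full, 6001 bp, with 15000 EMPs. Covered bases in the locus were 7302 bp and 20140 bp, a ratio of 2.76, against 1.64 to 2.16 for the other 7 marked members.

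Tbx22 (ENSMUSG00000031241, chrX:107667964-107688978, plus strand), the gene of X-linked cleft palate, had no peak with 500 EMPs in its locus. With 15000 EMPs it had 2 peaks, of 1234 bp (chrX:107676043-107677276) and 1433 bp (chrX:107678019-107679451), which covered 12.7% of the gene. They left the first start bare and covered the other 3 annotated transcript starts, which lie 8548 to 11051 bp into the gene. The call for Tbx22 near a start therefore turns on which start is used.

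Tbx10 (ENSMUSG00000037477, chr19:3992752-3999512, plus strand), whose misplaced expression causes cleft lip and palate in the Dancer mouse, had no peak in its locus in either library. The nearest peak was 220468 bp away with 500 EMPs and 107487 bp with 15000 EMPs. Tbx10 also stood apart in its surroundings: its locus held 6 other protein-coding genes in 20 kb on either side, with 0 covered bases in each.

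Joined across gaps of up to 3 kb, the peaks at each marked start formed 1 domain. The domain length with 500 EMPs ran from 10833 bp at Tbx4 and 10837 bp at Tbx20 to 28313 bp at Tbx15 and 37938 bp at Tbx3, against a median of 1070 bp over 3971 domains. With 15000 EMPs it ran from 13466 bp at Tbx20 and 15570 bp at Tbx1 to 30180 bp at Tbx15 and 40072 bp at Tbx3, against a median of 2776.5 bp over 6706 domains. The Tbx3 domain ranked 10 from the longest with 500 EMPs and 30 with 15000 EMPs, and the Tbx15 domain ranked 30 and 72. The members differed in how the domain changed between the libraries. At Tbx15 and Tbx3, peaks filled 61.6% and 58.3% of the domain with 500 EMPs, and 98.4% and 90.4% with 15000 EMPs. At Tbx4 the filling was 87.7% and 89.9%, while the length was 10833 bp and 20236 bp. At Tbx2 both differed, with lengths of 13422 bp and 19227 bp and fillings of 68.1% and 83.3%.

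The covered bases were unevenly placed about the genes. In the 20 kb before the 10 genes 17.1% of bases were covered with 500 EMPs and 31.3% with 15000 EMPs, and in the 20 kb after them 1.89% and 5.50%. Introns had 15.6% and 27.8% covered, coding exons 21.6% and 44.4%, and non-coding exon sequence 12.1% and 30.9%. Upstream flanks thus held 9.06 times (500 EMPs) and 5.69 times (15000 EMPs) the covered bases of downstream flanks. The downstream flank held covered bases at 2 members with 500 EMPs, Tbx1 (675 bp) and Tbx3 (3111 bp), and at 4 with 15000 EMPs, Tbx1 (1496 bp), Tbx2 (1365 bp), Tbx3 (5892 bp) and Tbx4 (2247 bp). Tbx3 thus supplied most of the downstream bases behind both ratios.

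The 2 linked pairs, each with both genes on the same strand, differed in what lay between the genes. Tbx2 and Tbx4 are 44473 bp apart on chromosome 11. Between them 1031 bp (2.32%) was covered with 500 EMPs and 4437 bp (9.98%) with 15000 EMPs, within 5 kb of either gene, and Gm11444 in the gap had 0 covered bases. Each of these genes thus had a domain of its own with uncovered sequence between.

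Tbx3 and Tbx5 are 147943 bp apart on chromosome 5. Between them 19964 bp (13.5%) was covered with 500 EMPs and 31834 bp (21.5%) with 15000 EMPs. Apart from the domains of the 2 genes, a further domain lay over the non-coding gene 1700021F13Rik. It ran over 15052 bp (chr5:119794726-119809777, 4 peaks, 13527 bp covered) with 500 EMPs and over 19426 bp (chr5:119791954-119811379, 5 peaks, 17590 bp covered) with 15000 EMPs. Its near edge was 22891 bp and 21289 bp before the start of Tbx5, outside the 20-kb flank, so none of it counts in the Tbx5 values above. The annotated peak tables assign the 4 peaks (500 EMPs) and the 5 peaks (15000 EMPs) of this domain to Tbx5.

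**Figure D4:**
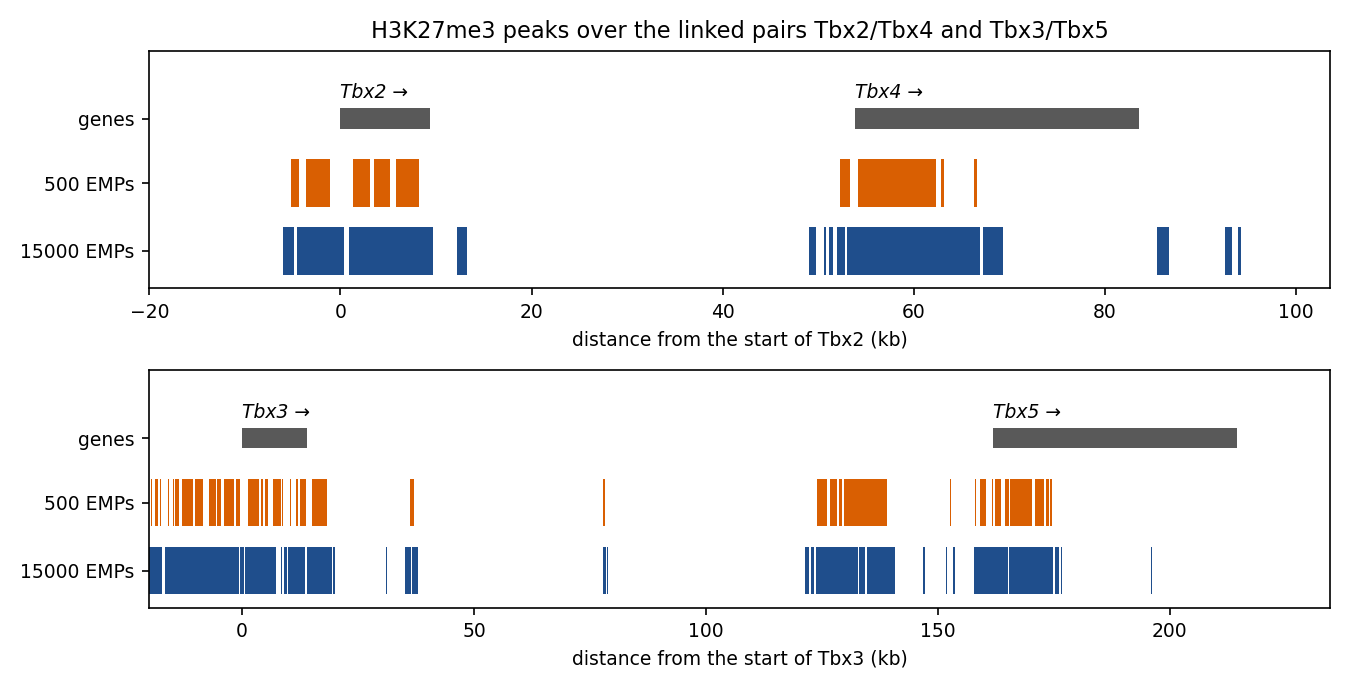
H3K27me3 peaks with 500 EMPs (orange) and 15000 EMPs (blue) over Tbx2/Tbx4 (top) and Tbx3/Tbx5 (bottom), by distance in kb from the start of the first gene; grey boxes are the genes and arrows give the direction of transcription. The stretch between Tbx2 and Tbx4 is mostly empty, while a block of peaks stands between Tbx3 and Tbx5 about 40 to 20 kb before Tbx5.

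Peaks of the libraries were compared by overlap. In the loci 80 of 82 peaks with 500 EMPs (97.6%, 95% Wilson interval 91.5 to 99.3%) overlapped a peak with 15000 EMPs by at least 1 bp, against 91.2% of all 500-EMP peaks. Both exceptions were short, 165 bp in Tbx3 and 137 bp before Tbx5. In the other direction 26 of 50 peaks with 15000 EMPs (52.0%, 38.5 to 65.2%) overlapped a 500-EMP peak, against 32.2% of all. These shares depended on the overlap asked for: at 50% of both peaks they were 6.10% and 10%, and at 50% of the 15000-EMP peak the second was 12%. The 24 without one had a median width of 450 bp and the 26 with one 4994 bp. Of the 15000-EMP bases in the loci 51.1% were also covered with 500 EMPs, against 23.1% over all peaks. Neighbouring peaks are not independent, and the intervals treat them as if they were. Peaks in the loci were also wider than all peaks. Median widths were 743.5 bp against 363 bp with 500 EMPs, and 1333.5 bp against 770 bp with 15000 EMPs. Wider peaks meet an overlap of 1 bp more easily, so the shares in the loci and over all peaks are not like for like.

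Covered bases in the loci summed to 91240 bp with 500 EMPs and 172248 bp with 15000 EMPs, or 12.3% and 23.2% of 741657 bp. The ratio between the libraries was 1.89 in the loci and 4.03 over all peaks (5.95 and 23.96 Mb). The number of peaks in the loci was 82 and 50, the reverse of the order over all peaks (10223 and 15282), and with gaps of up to 3 kb joined it was 10 and 16. The 500-EMP peaks in the loci were shorter (median 743.5 bp against 1333.5 bp), and 17 of the 50 peaks with 15000 EMPs overlapped 2 to 10 of them.

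The 2 members without a peak within 3 kb of the gene start had fewer CpG around that start than each of the 8 marked ones. Within 1 kb of the start, Tbx22 had 10 CpG dinucleotides and Tbx10 23, while the 8 marked members had 62 (Tbx4) to 174 (Tbx2). Over all genes split by this count into 4 groups of equal size, 0.966% of the group with the fewest and 18.4% of the group with the most had a peak within 3 kb with 500 EMPs, and 2.35% and 27.8% with 15000 EMPs. In the 2 groups between, the shares were 7.06% and 13.3% with 500 EMPs and 15.2% and 22.5% with 15000 EMPs. Tbx22 was in the lowest group and Tbx10 in the next, where the share was near that of all genes, while 5 marked members were in the third group and Tbx2, Tbx3 and Tbx18 in the highest. The contrast does not extend to the inner starts of Tbx22. Their 300-base windows held 2 and 1 CpG and were covered in full with 15000 EMPs. Among the marked members with 500 EMPs, Tbx15, with 73 CpG, had the most bases covered and Tbx18, with 132, the fewest, and with 15000 EMPs both were covered in full. Covered sequence in the loci held 23.5 CpG per kb where both libraries had a peak and 25.4 where only the 15000-EMP library had one, against 9.66 where neither had. In the genome the same densities were 21.5, 24.1 and 8.12.

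**Figure D5:**
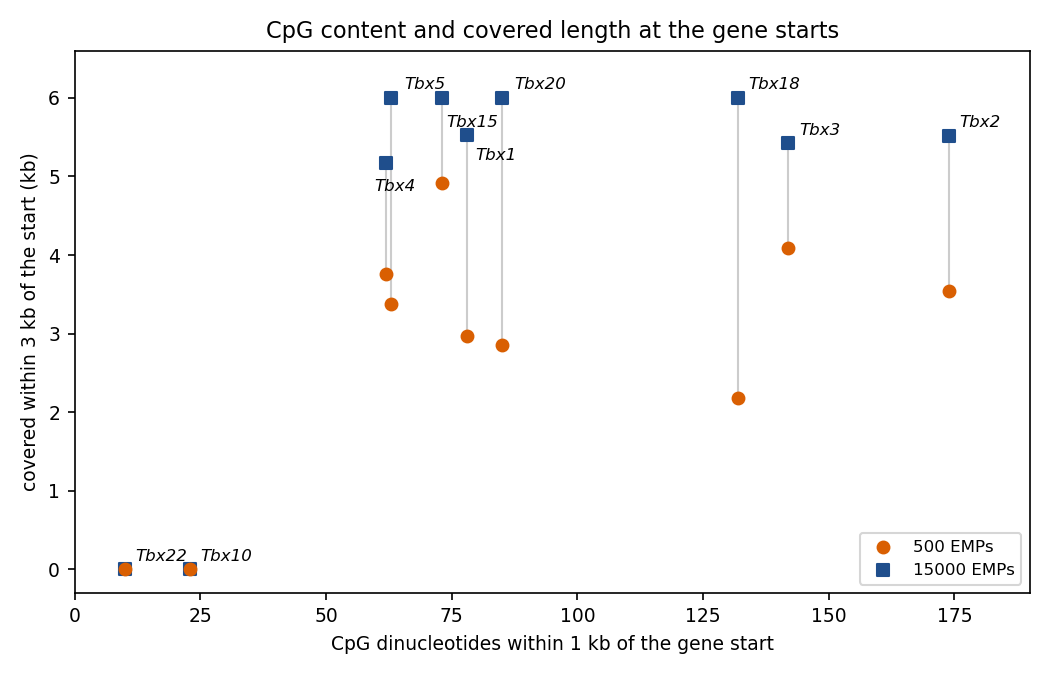
CpG dinucleotides within 1 kb of the gene start against bases covered by H3K27me3 peaks within 3 kb of it (kb), for 10 T-box genes with 500 EMPs (orange circles) and 15000 EMPs (blue squares), the 2 values of a gene joined by a line. Tbx22 (10) and Tbx10 (23) lie at 0 kb and the other 8 genes have 62 or more.

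Coverage at the starts of protein-coding neighbours was counted in the same way. Of 17 nearest neighbours outside the family, 1 had a peak within 3 kb of the start with 500 EMPs and 3 with 15000 EMPs, beside 9.92% and 17.0% of all genes, so these counts lay near the background. Gp1bb, 29645 bp from Tbx1, encodes a platelet glycoprotein and had 2803 bp and 5866 bp covered there. Dpy19l2 beside Tbx20 (625 bp) and Nt5e beside Tbx18 (1882 bp) had coverage with 15000 EMPs only. Wars2 ends 1194 bp before Tbx15, and the Tbx15 domain reached into it over 3529 bp and 4762 bp while its own start had none.

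Of the other 7 T-box genes, 4 had a peak within 3 kb of the start in both libraries. These were T (Brachyury, of the primitive streak), Eomes, Tbr1 and Tbx21 (T-bet, of T lymphocytes), with 869 to 3902 bp covered with 500 EMPs and 2494 to 6001 bp with 15000 EMPs. Tbx6, Tbx19 and Mga had none. Whether the 8 of 10 and the 4 of 7 differ was not tested.

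Known partners and targets of these factors were often marked too. Of 12 partner transcription factors 11 had a peak near the start in both libraries, Mef2c being the exception, and of 18 targets 8 had one with 500 EMPs and 12 with 15000 EMPs. Together these were 19 of 30 (63.3%) and 23 of 30 (76.7%), beside the shares of all genes given above. Nkx2-5, the early cardiac homeobox gene, had 4386 bp and 6001 bp of its start window covered, and Gata4 had 3478 bp and 4597 bp. Among targets, the pacemaker channel gene Hcn4 had 2577 bp and 5968 bp, and Fgf8, a growth factor gene of the pharyngeal arches, had 3081 bp and 5681 bp. Bmp4, Sall4, Has2 and Tgfb2 had such coverage with 15000 EMPs only. The chamber genes Nppa, Nppb, Gja1 and Gja5, with Bmp10 and Fgf10, had no peak within 3 kb of the start in either.

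The sorted cell type was set against marker genes in the same way. Of 10 EMP markers, including Kit, Itga2b and Runx1, 0 had a peak within 3 kb of the start in either library. Of 6 endothelial markers 1 (Sox17) and 2 (Sox17 and Kdr) had one, of 5 erythroid markers 0 and 1 (Hba-a1), and of 5 yolk sac endoderm markers 1 (Foxa2) in both. Of 5 mesenchyme markers 4 (Pdgfra, Col1a1, Twist1 and Hand1) had one in both. Beside these stand 9.92% and 17.0% of all genes. The 95% Wilson interval of the mesenchyme share, 37.6 to 96.4%, lies above both, and those of the other 4 lists include both. The lists were chosen with earlier results of these data known, so the intervals cover counting error only and test no excess. Lists of 5 to 10 genes are too short to show a share below the background, since the interval of 0 of 10 reaches 27.8%. Hand1 and Foxa2 also stand in the partner list. The mark gives no expression level, and the part of other cells in the T-box peaks was not tested.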

How the data were processed

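Per the labels, E10.5 yolk sac EMPs were profiled for H3K27me3 by CUT&RUN, and 1 library per cell number was available. The authors aligned reads to mm10 with Bowtie2 2.2.1. They called broad peaks with MACS2 2.1.2 for each H3K27me3 library, with the IgG library of the same cell number as control. The authors' command listing names the other library under each threshold, and the lists were taken as labelled. The deposited peak files used here give the position of each peak in bp and the gene assigned to it, without a score, height or count. Signal tracks were not used here. Depth cannot be read from these files and was not corrected for, and the study's reporting summary gives fewer and less often aligned reads for 500 EMPs. The IgG libraries entered only as the control of the authors' peak calling.

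Coordinates are 1-based on mm10. Of all peaks, 0 ran past a chromosome end of GRCm38.p6. Genes and starts came from GENCODE M21. Every table row naming a member (81 with 500 EMPs and 50 with 15000 EMPs) matched a listed peak. Of the peaks counted in the loci, 5 with each cell number were assigned by the authors' annotation to genes other than the members. Those genes were 2610027K06Rik and Tbx3os2 in both libraries, and also Gp1bb with 15000 EMPs. Members, lists and comparisons were chosen with earlier results of these data known. Named genes were the 10 members, the nearest protein-coding neighbours, the other T-box genes, and list genes with a peak near the start, some of which are not reported here singly; genes named as lacking one were added after their values were seen. Wilson intervals were computed with Python 3.11.15. The counting of covered length and peaks and the joining of peaks were checked on simulated positions, and the Wilson intervals were not. With 1 library per group no test was made. Alternatives were other distances, joined peaks, minimum widths, stricter overlap and all transcript starts. Composition within 1 kb of the start was added after seeing the data.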

Additional observations from a re-analysis of the deposited data

How the results depend on the processing

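The number of members with a peak near the start was 7 with 500 EMPs when the distance was cut to 1 kb, since the nearest Tbx2 peak was farther off, and 9 with 15000 EMPs when all transcript starts were used, through Tbx22. It was 8 under the other distances and width limits tried. Of 46 alternative values 34 stayed within the limits set, which were a ratio of 1.5 for counts, lengths and the share of bases, and the Wilson interval for shares of peaks.

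The number of peaks depended on joining. With gaps of up to 1 kb joined it was 30 with 500 EMPs and 19 with 15000 EMPs, and with gaps of up to 3 kb joined 10 and 16. Of the 500-EMP peaks 49 were at least 500 bp wide. Without flanks the covered length was 53171 bp with 500 EMPs and 98691 bp with 15000 EMPs, and with gaps of up to 3 kb joined the 500-EMP length was 148455 bp and the shared part of the 15000-EMP bases 78.1%. When the overlap had to reach 50% of both peaks, the shares were 6.10% of 500-EMP peaks and 10% of 15000-EMP peaks, and 12% of the latter when it had to reach 50% of the 15000-EMP peak.

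No paired analysis was possible because each group had 1 library. Leaving out a library would leave no group to compare. Depth, lower for 500 EMPs by the study's reporting summary, was not corrected for, and a missing peak is not a missing mark.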
